A study of Mus musculus with 6 samples.

Results

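Cytochrome P450 genes outside family 4 were examined in RNA sequencing of glomeruli, the capillary tufts where the kidney filters blood. They were taken as the protein-coding genes with a mouse symbol of the form Cyp and a number, without the family 4 hydroxylases and without Cyp51, Cyp24a1 and Cyp27b1. Of 77 genes that fit the name, 30 had at least 10 raw counts in 3 or more of the 6 libraries and are described here. They were thus selected on their counts, whatever the group, out of 54838 gene identifiers and 17156 past the same count rule. The 6 libraries are 3 labelled KO (146, 147 and 148), with the genotype bPIX -/- and a loss of bPIX restricted to podocytes per the series design, and 3 labelled CTRL (157, 162 and 163), with a wild type genotype. All mice were 3-week-old, and no agent, strain or Cre driver is given in the sources used here. bPIX is the protein of Arhgef7, an exchange factor for Rac1 and Cdc42, and podocytes are the epithelial cells around the glomerular capillaries. For each of the 6 libraries the name of its file states the opposite group, and the sample labels were followed. Were the file names correct, every difference below would keep its size and take the opposite sign.

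Cytochrome P450 enzymes are haem proteins of the endoplasmic reticulum and the inner mitochondrial membrane that insert an oxygen atom into fats, steroids and foreign compounds. They take electrons from NADPH through a reductase or, in mitochondria, through ferredoxin. In the mouse kidney the enzymes of families 2 and 4 are known mainly from the proximal tubule, where the Cyp2j and Cyp2c enzymes turn arachidonic acid into epoxides that act on vessels and on salt transport.

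Gene counts were 40246366 to 51917945 in the libraries labelled KO and 39841396 to 46187515 in those labelled CTRL. Arhgef7 itself was not called (log2 fold change 0.17, SE 0.17, edgeR adjusted p = 0.544), at 132.8, 89.6 and 85.9 CPM (gene counts scaled to the TMM library size) in KO 146, 147 and 148, against 91.9, 94.1 and 88.4 CPM in CTRL 157, 162 and 163. A deletion in podocytes leaves the gene in other cells, so this level does not check the labels. Levels of tubule and glomerular markers went along with the groups. The mean of 23 proximal tubule markers was 7.99, 8.46 and 8.65 log2 CPM in KO 146, 147 and 148, against 8.95 to 9.01 in the libraries labelled CTRL. The mean of 10 podocyte markers was 8.62, 7.33 and 6.77 in KO 146, 147 and 148, against 5.55 to 5.87. That of 12 endothelial and mesangial markers was 8.21, 7.10 and 6.51, against 5.46 to 5.69. The log2 fold change was negative for all 23 tubule markers (15 lower at an unadjusted p below 0.05, with 1 called lower by edgeR, Slc7a13, 12 by DESeq2 and 1 by limma-voom). It was positive for all 10 podocyte and all 12 endothelial and mesangial markers, of which edgeR and limma-voom called 0 and DESeq2 all, each with an unadjusted p below 0.05. KO 146 held the most glomerular and the least tubular RNA. In RNA from whole glomerular preparations, fewer cells of a type and less RNA per cell cannot be told apart.

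The count rule did not turn on a group for 29 of the 30 genes, which had at least 10 counts in every library. The exception, Cyp26a1, lay just inside it with counts of 18, 8 and 12 in KO 146, 147 and 148, against 13, 9 and 13 in CTRL 157, 162 and 163. Cyp2c38 lay just outside with 8 counts in each library labelled KO, against 13, 5 and 10 in CTRL 157, 162 and 163. Of the 47 genes under the rule, 16 had no count in any library. These included several P450 genes best known from liver, such as Cyp2a12, Cyp2c37 and Cyp2c70. Cyp7a1, the rate-limiting enzyme of bile acid synthesis, had at most 2 counts. All 6 genes of steroid hormone synthesis (Cyp11a1, Cyp11b1, Cyp11b2, Cyp17a1, Cyp19a1 and Cyp21a1) were under the rule, with a highest count of 10.

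Levels spanned more than 3 orders of magnitude per length of exon. Cyp2j5, an arachidonic acid epoxygenase of mouse kidney, was highest at 283 ± 65.1 CPM per kb in the libraries labelled KO and 468 ± 38.5 in those labelled CTRL (SD, n = 3 each). Cyp2e1, which oxidises ethanol and acetone, followed at 188 ± 65.3 CPM per kb in KO and 352 ± 40.1 in CTRL. Cyp2d26, Cyp2j13 and Cyp2j11 came next, at 43.2, 26.8 and 27.2 CPM per kb in KO and 72.7, 51.7 and 45.2 in CTRL. Cyp2j5 and Cyp2e1 together gave 63.9% to 71.7% of the CPM of all 30 genes in the libraries labelled KO and 68.5% to 72.6% in those labelled CTRL. The 30 genes together summed to 1205, 1718 and 1737 CPM in KO 146, 147 and 148, against 2796, 2465 and 2636 CPM in CTRL 157, 162 and 163. Every library labelled KO was below every library labelled CTRL, and KO 146 was lowest, as it was for the proximal tubule markers. The part of tubule RNA content in this difference was not tested.

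**Figure D1:**
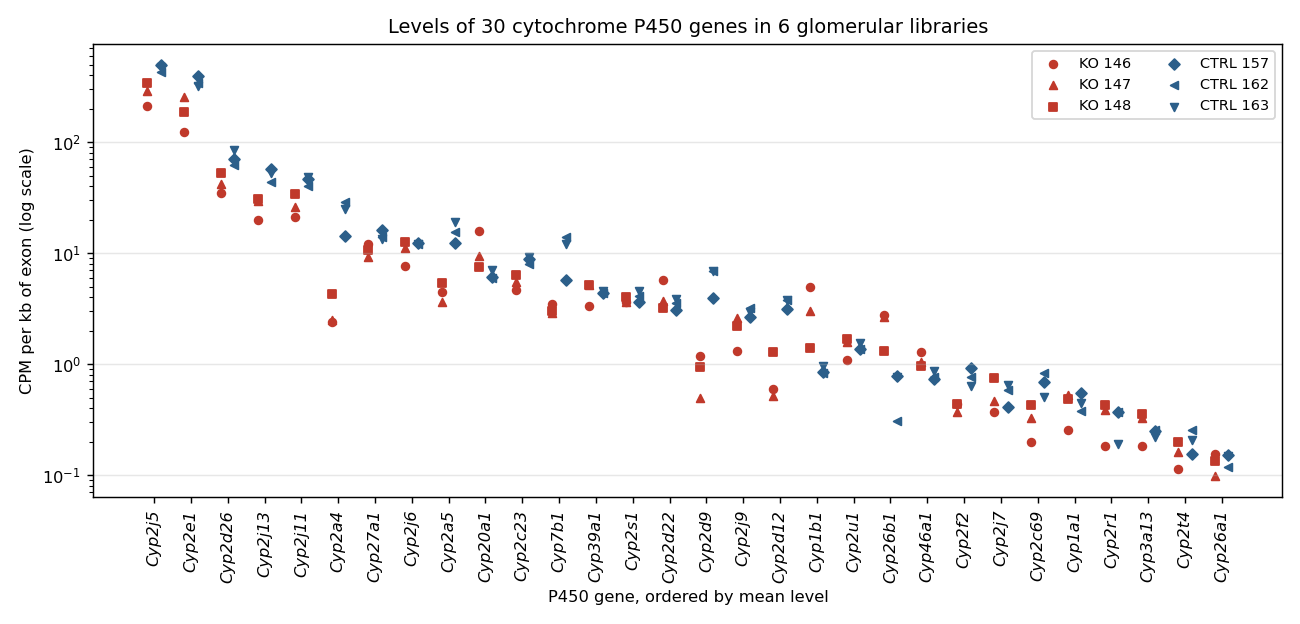
Level of each of the 30 P450 genes in the 6 libraries, in CPM per kb of exon on a log scale. Genes run from the highest mean level to the lowest, red points are libraries labelled KO and blue points those labelled CTRL, and Cyp2j5 and Cyp2e1 stand above all other members in every library.

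Across the 30 genes, edgeR called 3 lower and 0 higher in the libraries labelled KO at an adjusted p below 0.05, with the adjustment made over 17086 genes. The background was 0.421% of tested genes called lower and 0.591% called higher, 1.01% in either direction. At an unadjusted p below 0.05, 14 members were lower and 4 higher, where the shares over all tested genes were 11.8% and 17.5%. DESeq2 called 14 lower and 3 higher (background 5.65% and 11.7%), and limma-voom called 4 lower and 0 higher (background 0.363% and 0.433%). The groups did not overlap in 15 members with lower and 4 with higher values in KO, where the shares over all tested genes were 19.6% and 21.9%, and 41.5% in either direction. A negative log2 fold change was found in 21 of the 30, against 50.7% of all tested genes. The median log2 fold change of the members was -0.42, and that of all tested genes was -0.01. With library totals as the only scaling, the median of all genes was 0.13 and that of the members -0.28. The share of higher among all calls was then 69.5%, and 58.4% with TMM scaling.

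**Figure D2:**
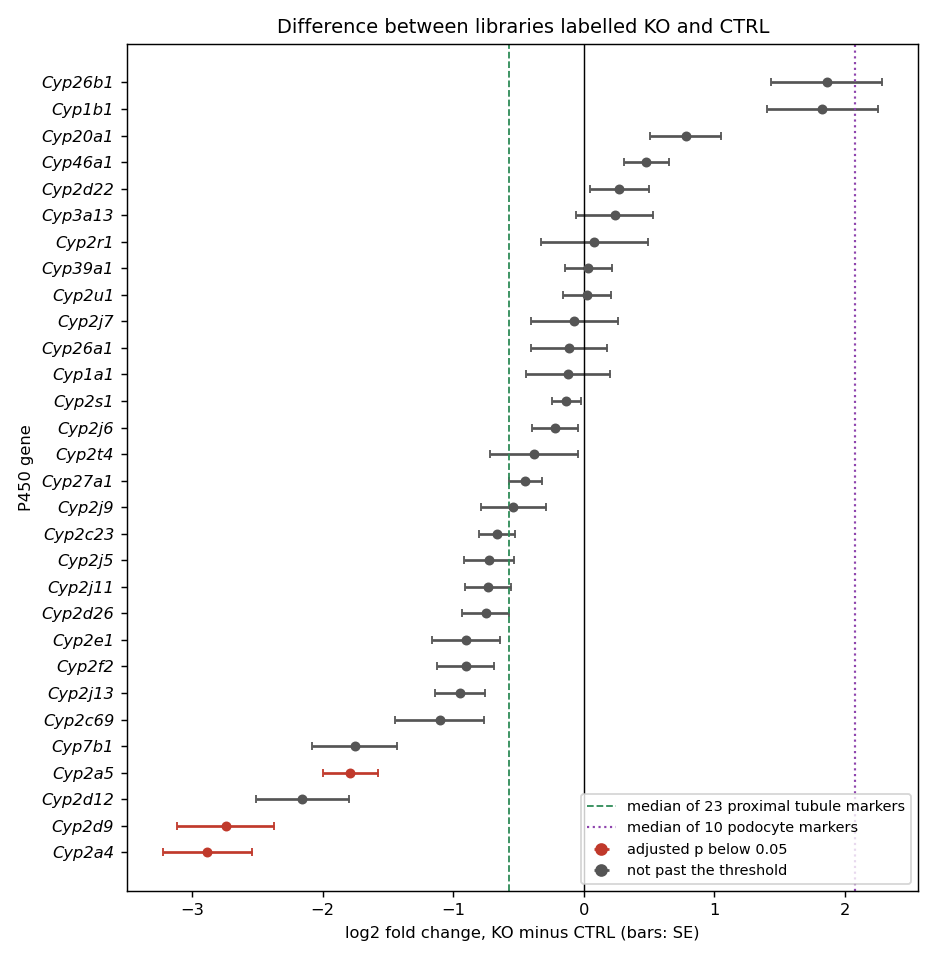
Log2 fold change of each P450 gene, libraries labelled KO minus those labelled CTRL, with its SE from edgeR. Cyp2a4, Cyp2d9 and Cyp2a5 in red passed the threshold, and the dashed and dotted lines mark the median of 23 proximal tubule markers at -0.57 and of 10 podocyte markers at 2.07.

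The called genes were Cyp2a4, Cyp2a5 and Cyp2d9, of the enzymes that oxidise steroids and foreign compounds. In mouse, Cyp2a4 and Cyp2d9 are known as testosterone hydroxylases with sex-dependent expression, and Cyp2a5 as the coumarin hydroxylase. The bases upstream of the start of these genes are shown because Cyp2a4 and Cyp2a5 are close copies that both fell, while Cyp2d9 is a distant relative. The sequences are those of RefSeq on GRCm38, 250 bases that end at the base before the RefSeq start, on the plus strand, in lower case. GENCODE, used for the counts' positions below, places other starts: within the Cyp2a4 and Cyp2a5 windows and upstream of the Cyp2d9 window. In Cyp2a4 (chr7:26306942-26307191) and Cyp2a5 (chr7:26835089-26835338), capitals mark the bases at which the pair differs. In Cyp2d9 (chr15:82452127-82452376), capitals mark a match to TATAAA on the opposite strand.
Cyp2a4: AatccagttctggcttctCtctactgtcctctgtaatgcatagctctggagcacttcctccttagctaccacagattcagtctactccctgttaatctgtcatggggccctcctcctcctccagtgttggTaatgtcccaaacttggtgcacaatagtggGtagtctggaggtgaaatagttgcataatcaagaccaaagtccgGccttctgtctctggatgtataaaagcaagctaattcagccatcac
Cyp2a5: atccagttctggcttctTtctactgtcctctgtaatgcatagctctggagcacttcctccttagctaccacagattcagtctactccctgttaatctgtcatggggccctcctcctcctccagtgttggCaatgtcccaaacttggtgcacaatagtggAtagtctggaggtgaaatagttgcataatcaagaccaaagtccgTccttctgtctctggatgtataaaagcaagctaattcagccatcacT
Cyp2d9: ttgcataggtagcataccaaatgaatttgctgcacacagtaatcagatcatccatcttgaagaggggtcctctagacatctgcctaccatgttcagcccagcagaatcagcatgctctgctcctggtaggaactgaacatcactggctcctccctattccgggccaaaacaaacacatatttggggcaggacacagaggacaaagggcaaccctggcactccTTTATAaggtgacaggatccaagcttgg
The Cyp2a4 and Cyp2a5 windows were identical at 245 of 251 aligned positions (97.6%), with 4 substitutions and a shift of the window by 1 base. Cyp2a4 and Cyp2d9 shared 47% of aligned positions. TATAAA was found on either strand in all of these windows, with its first base 28 or 29 bases upstream of the start, in 8 of the 23 members with a promoter in the RefSeq table, and in 12.4% of all 32851 promoter windows, where a gene can have several. Other motifs searched on both strands included CAAAGTCCA (HNF4), the HNF1 palindrome, TTCNNNGAA (STAT5) and GCGTG (the core bound by AhR). None of these 4 had an exact match in the windows of the called genes. Among the 23 members they were in 1, 0, 1 and 6 windows, and among all windows in 0.38%, 0.12%, 7.02% and 28.2%. Near matches were not searched for, and the Cyp2a4 and Cyp2a5 windows hold caaagtccg, which differs from CAAAGTCCA at its last base. A match, or its absence, describes the letters only.

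Cyp2a4 (chromosome 7, 26307169 to 26315088, plus strand, GRCm38) had raw counts of 248, 182 and 337 in KO 146, 147 and 148, against 1063, 1907 and 1912 in CTRL 157, 162 and 163. Its level was 4.20, 4.39 and 7.42 CPM in KO 146, 147 and 148, against 24.7, 50.1 and 43.2 CPM in CTRL 157, 162 and 163. The highest library labelled KO was far below the lowest labelled CTRL. The log2 fold change was -2.88 (SE 0.34, edgeR adjusted p = 0.0329), the eighth lowest of all tested genes, and 7.37-fold lower in KO on the linear scale. Cyp2a5 (chromosome 7, 26835305 to 26843548, plus strand) stood at 9.22, 7.60 and 11.3 CPM in KO 146, 147 and 148, against 25.6, 31.9 and 39.6 CPM in CTRL 157, 162 and 163. It fell by 1.79 on the log2 scale (SE 0.21, edgeR adjusted p = 0.0311), with no overlap of the groups.

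Cyp2a4 was lower relative to Cyp2a5 in the libraries labelled KO. The ratio of their counts was 0.456, 0.578 and 0.657 in KO 146, 147 and 148, against 0.965, 1.57 and 1.09 in CTRL 157, 162 and 163. The log2 ratio differed by -1.08 between the groups (-0.84 ± 0.27 in KO and 0.24 ± 0.36 in CTRL, SD, n = 3 each, exact two-sided permutation p = 0.1, the smallest that 3 against 3 allows, and 0.125 adjusted over 5 pairs of members). The pairs were chosen after the values were seen. Reads that aligned to several places are absent from the gene counts. Of the distinct stretches of 50 bases in the annotated transcripts, 38.8% in Cyp2a4 and 37% in Cyp2a5 also occur in another gene, mostly in each other, and of those of 100 bases 11.2% and 12.1%. No source used here gives the read length, and the levels of both genes are uncertain to that extent.

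Cyp2d9 (chromosome 15, 82433437 to 82456845, plus strand, GRCm38) stood at 3.14, 1.33 and 2.53 CPM in KO 146, 147 and 148, against 10.4, 18.4 and 18.4 CPM in CTRL 157, 162 and 163. It fell by 2.74 on the log2 scale (SE 0.37, edgeR adjusted p = 0.0361), and the groups were well apart. Its neighbour Cyp2d12 had 2.30, 2.003 and 5.02 CPM in KO 146, 147 and 148, against 12.2, 14.6 and 14.8 CPM in CTRL 157, 162 and 163. The groups did not overlap, and the log2 fold change of -2.15 (SE 0.35) missed the threshold (edgeR adjusted p = 0.0533), while limma-voom called it (adjusted p = 0.0379), as did DESeq2 (adjusted p = 1.85e-07). Over the alternatives its adjusted p ran from 1.85e-07 to 0.323.

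Other genes of the same Cyp2d cluster on chromosome 15 had other values. Cyp2d26 had 62.0, 75.9 and 94.1 CPM in KO 146, 147 and 148, against 126.8, 112.8 and 151.3 CPM in CTRL 157, 162 and 163 (log2 fold change -0.75, SE 0.18, edgeR adjusted p = 0.0756). Cyp2d22 had 22.4, 14.5 and 12.5 CPM in KO 146, 147 and 148, against 12.0, 13.8 and 15.1 CPM in CTRL 157, 162 and 163, with overlapping groups (0.27, SE 0.23, edgeR adjusted p = 0.454). The log2 ratio of Cyp2d9 to Cyp2d26 was -5.09 ± 0.76 in KO and -3.08 ± 0.50 in CTRL, and that of Cyp2d22 to Cyp2d26 was -2.25 ± 0.73 in KO and -3.25 ± 0.20 in CTRL (SD, n = 3 each). Neither ratio overlapped between the groups (exact permutation p = 0.1 for each, the smallest possible, and 0.125 adjusted over the 5 pairs). The log2 ratio of Cyp2d9 to Cyp2d12 was -0.37 ± 0.73 in KO and 0.14 ± 0.32 in CTRL, a difference within the spread of the libraries (exact permutation p = 0.4). Cyp2d9 shares 21.8% of its 50-base stretches with other genes, and Cyp2d12 7.61%. Other annotated genes overlap exons of Cyp2d9 and Cyp2d12 on the same strand and of Cyp2a4 on the opposite strand, where reads cannot be assigned with certainty.

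**Figure D3:**
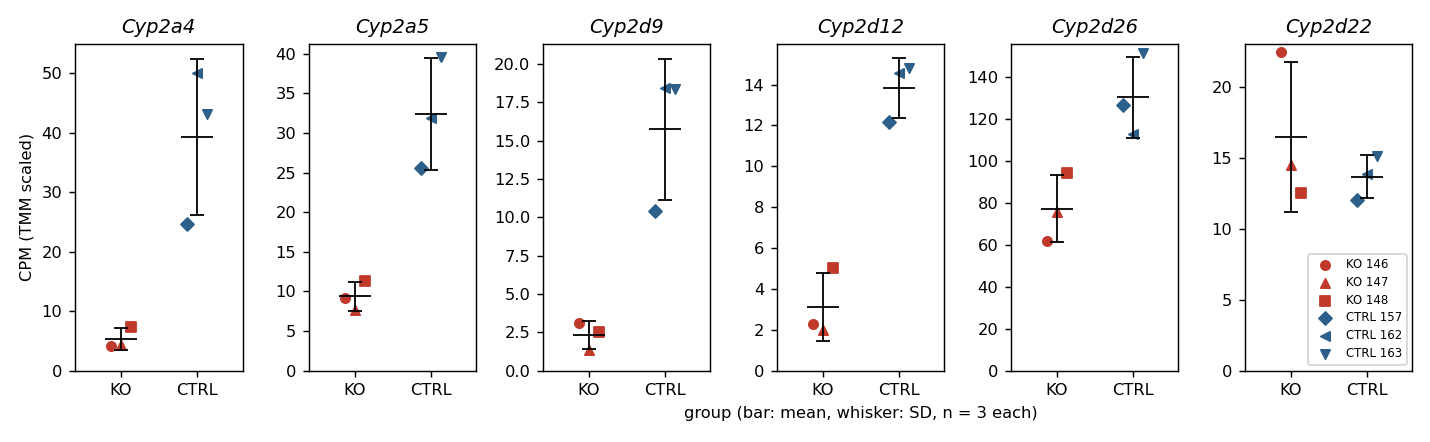
CPM of the Cyp2a and Cyp2d members in each library, with KO on the left and CTRL on the right, bars for the mean and whiskers for the SD of 3 libraries. Cyp2a4, Cyp2a5, Cyp2d9, Cyp2d12 and Cyp2d26 have no overlap between the groups, while Cyp2d22 has.

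The called genes were also set against the proximal tubule markers within each library, as log2 CPM minus the mean of the 23 markers. Cyp2a4 stood at -5.99 ± 0.29 in KO and -3.74 ± 0.57 in CTRL, Cyp2a5 at -5.15 ± 0.38 in KO and -3.98 ± 0.33 in CTRL, and Cyp2d9 at -7.20 ± 0.85 in KO and -5.05 ± 0.50 in CTRL (SD, n = 3 each). The differences of -2.25, -1.17 and -2.16 had no overlap between the groups (exact permutation p = 0.1 for each, the smallest possible, also after adjustment over the 3 genes). These genes were chosen by their calls in the same 6 libraries, so this separation is not independent support. Members not called also had no overlap on this measure. Among them were Cyp2d12 (-1.64) and Cyp2j13 (-0.35), lower in KO, and Cyp2s1 (0.48) and Cyp46a1 (1.08), higher in KO. With 6 late proximal tubule markers as the comparator the differences of the 3 called genes were -2.14, -1.06 and -2.05. With the proximal tubule mean as a covariate in edgeR, their log2 fold changes were -2.35, -1.64 and -3.33 and none was called (adjusted p = 0.309, 0.207 and 0.196). This mean was itself lower in every library labelled KO than in any labelled CTRL. With 6 libraries, the covariate fit therefore cannot separate the marker mean from the group.

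The calls of these 3 genes depended on which libraries were used. Without KO 147, CTRL 157, CTRL 162 or CTRL 163 edgeR called none of the 30 members, with adjusted p values of the 3 genes between 0.0927 and 0.177. Few genes of any kind were then called, with lower and higher shares of 0.00574% and 0.00574% without KO 147, 0.00569% and 0.00569% without CTRL 157, 0.0057% and 0.0114% without CTRL 162, and 0.0284% and 0.0284% without CTRL 163. Without KO 146, 12 members were lower and 0 higher (background 6.62% and 10.5%), and without KO 148, 11 were lower and 3 higher (background 5.4% and 12.9%). Cyp2a4, Cyp2a5 and Cyp2d9 were among the lower ones both times. With 1 library left out, the log2 fold change lay between -3.20 and -2.67 for Cyp2a4, -1.95 and -1.62 for Cyp2a5, and -3.02 and -2.47 for Cyp2d9.

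With all libraries the same 3 genes were called under DESeq2 size factors (background 0.427% lower and 0.585% higher), library totals (0.293% and 0.667%) and edgeR without robust estimation (0.451% and 0.597%). Without the filter on low counts 9 members were lower and 0 higher (background 1.31% and 1.41%). With the proximal tubule covariate 0 members were called in either direction (background 0.433% and 1.42%), and 5 were lower and 4 higher at an unadjusted p below 0.05.

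Among the other enzymes of foreign compounds, none was called by edgeR. Of all 14 in this class, with the 3 called genes, DESeq2 called 7 lower and 1 higher (background 5.65% and 11.7%). The lower ones included Cyp2e1 and Cyp2f2 (DESeq2 adjusted p = 0.00702 and 0.0178), and the higher one was Cyp1b1. By limma-voom 4 of the 14 were lower and 0 higher (background 0.363% and 0.433%). Cyp2e1 had 267, 549 and 405 CPM in KO 146, 147 and 148, against 856, 738 and 688 CPM in CTRL 157, 162 and 163 (log2 fold change -0.90, SE 0.26, edgeR adjusted p = 0.0875). The groups did not overlap, and KO 147 was highest among KO. Cyp2f2, known in mouse for naphthalene oxidation in the lung, was low at 0.84 ± 0.08 CPM in KO and 1.57 ± 0.30 CPM in CTRL (SD, n = 3 each), a log2 fold change of -0.91. Cyp1b1, which oxidises oestrogens and polycyclic hydrocarbons, had the opposite direction, with 28.8, 17.7 and 8.12 CPM in KO 146, 147 and 148, against 4.93, 4.86 and 5.63 CPM in CTRL 157, 162 and 163. All libraries labelled KO were above all labelled CTRL, in the same order as the podocyte, endothelial and mesangial markers. Its log2 fold change of 1.83 (SE 0.43) was not called (edgeR adjusted p = 0.0755, 2.78e-04 to 0.829 over the alternatives). With the proximal tubule covariate, which cannot be separated from the group, it was 0.20. The part of glomerular RNA content in it was not tested. Cyp1a1, the classic target of the aryl hydrocarbon receptor, had 1.18 ± 0.41 CPM in KO and 1.28 ± 0.24 CPM in CTRL. Cyp2s1, Cyp2u1, Cyp2t4 and Cyp3a13 had log2 fold changes between -0.38 and 0.24, with overlapping groups.

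The epoxygenase families Cyp2c and Cyp2j had 8 members, all with a negative log2 fold change (-1.10 to -0.07, median -0.69) and none called by edgeR. Over all tested genes, 50.7% had a negative log2 fold change and edgeR called 0.421% lower. An unadjusted p below 0.05 was found for 5 of the 8, all lower, where the share lower over all tested genes was 11.8%. DESeq2 called 5 lower (background 5.65%), against 0 by limma-voom (background 0.363%). Cyp2j5 had 502.5, 683 and 806 CPM in KO 146, 147 and 148, against 1175, 998 and 1117 CPM in CTRL 157, 162 and 163 (log2 fold change -0.72, SE 0.19, edgeR adjusted p = 0.0794). KO 146 was lowest and no KO library reached the CTRL range. Cyp2j13 (-0.95, SE 0.19), Cyp2j11 (-0.73, SE 0.18) and Cyp2c23 (-0.66, SE 0.14), an arachidonic acid epoxygenase of the kidney, had the same separation, with edgeR adjusted p values of 0.0731, 0.0758 and 0.0731. Relative to the proximal tubule markers, Cyp2j5 stood at 0.98 ± 0.02 in KO and 1.12 ± 0.09 in CTRL, Cyp2j11 at -2.69 ± 0.11 in KO and -2.55 ± 0.11 in CTRL, and Cyp2c23 at -4.81 ± 0.13 in KO and -4.75 ± 0.08 in CTRL (log2 scale, SD, n = 3 each). Cyp2j13 stood at -1.42 ± 0.07 in KO and -1.07 ± 0.17 in CTRL, and Cyp2j6 at -3.16 ± 0.04 in KO and -3.52 ± 0.03 in CTRL. The differences were -0.35 for Cyp2j13 and -0.13 for Cyp2j5, lower in KO without overlap, and 0.36 for Cyp2j6 and 0.52 for Cyp2j7, higher in KO without overlap. For Cyp2c69, Cyp2j11, Cyp2c23 and Cyp2j9 they were -0.45, -0.14, -0.06 and 0.03, with overlapping groups. Against the late proximal tubule markers the groups of Cyp2j13 and Cyp2j5 overlapped (-0.25 and -0.03), while those of Cyp2j6 and Cyp2j7 did not (0.47 and 0.62). Both marker means were lower in every library labelled KO, so a gene of unchanged CPM stands higher relative to them. Without the markers, the log2 fold changes of Cyp2j6 and Cyp2j7 were -0.22 and -0.07. Members of other families, such as Cyp2u1 and Cyp39a1, were also higher relative to the markers without overlap.

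Within the Cyp2j cluster on chromosome 4, Cyp2j6 differed less between the groups than Cyp2j5. Cyp2j6 had 27.5, 40.1 and 45.8 CPM in KO 146, 147 and 148, against 44.2, 43.8 and 44.0 CPM in CTRL 157, 162 and 163, with overlapping groups (log2 fold change -0.22, SE 0.18, edgeR adjusted p = 0.441). The ratio of Cyp2j5 to Cyp2j6 counts was 18.3, 17.1 and 17.6 in KO 146, 147 and 148, against 26.6, 22.8 and 25.4 in CTRL 157, 162 and 163. The log2 ratio differed by -0.50 (4.14 ± 0.05 in KO and 4.64 ± 0.12 in CTRL, SD, n = 3 each, exact permutation p = 0.1, the smallest possible). Cyp2j9 (-0.54) was not called, and its highest KO value of 8.67 CPM was just under the lowest CTRL value of 8.97 CPM. Cyp2j7 was low, at 0.80 ± 0.31 CPM in KO and 0.84 ± 0.19 CPM in CTRL. Cyp2c69 was also low (0.54 ± 0.19 CPM in KO and 1.15 ± 0.28 CPM in CTRL), and 54.3% of its 50-base stretches occur in other genes. For the Cyp2j genes that share was at most 2.32%.

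**Figure D4:**
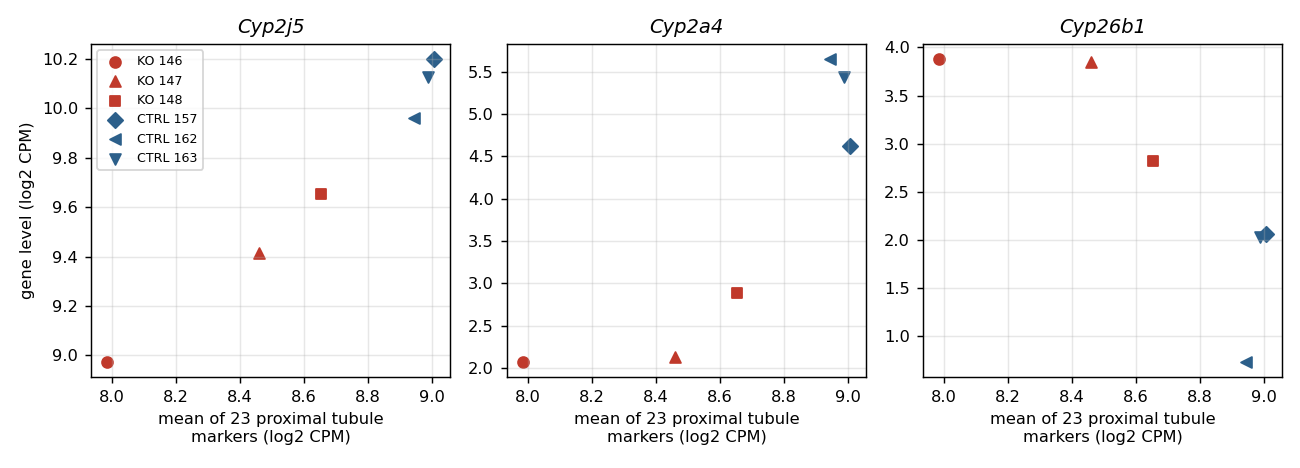
Level of Cyp2j5, Cyp2a4 and Cyp26b1 (log2 of CPM) in each library against the mean log2 CPM of 23 proximal tubule markers, with red for KO and blue for CTRL. Among the KO libraries Cyp2j5 is lowest and Cyp26b1 highest in KO 146, which has the lowest marker mean, while Cyp2a4 is at 4.20 and 4.39 CPM in KO 146 and 147.

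Among the sterol and bile acid enzymes, edgeR called none of 4. By unadjusted p below 0.05, 2 were lower and 1 was higher, where the shares over all tested genes were 11.8% and 17.5%. DESeq2 called 2 lower (background 5.65%) and limma-voom 0 (background 0.363%). Cyp7b1, an oxysterol hydroxylase, had 7.61, 6.30 and 6.58 CPM in KO 146, 147 and 148, against 12.3, 30.6 and 26.4 CPM in CTRL 157, 162 and 163. The groups did not overlap and CTRL 157 was the lowest of its group, as it was for Cyp2a4, Cyp2a5, Cyp2d9 and Cyp2d12. Its log2 fold change was -1.76 (SE 0.33, edgeR adjusted p = 0.0666, 1.10e-05 to 0.371 over the alternatives). None of its 50-base stretches occurs in another gene. Cyp27a1, the mitochondrial hydroxylase of sterol side chains, had 26.1, 20.2 and 23.02 CPM in KO 146, 147 and 148, against 35.3, 30.3 and 29.0 CPM in CTRL 157, 162 and 163 (-0.45, SE 0.13, edgeR adjusted p = 0.0845). Cyp39a1, another oxysterol hydroxylase, overlapped between the groups (0.04, SE 0.18). Cyp46a1, known for cholesterol turnover in the brain, was at 3.61 ± 0.54 CPM in KO and 2.595 ± 0.22 CPM in CTRL (SD, n = 3 each), with a log2 fold change of 0.48 (edgeR adjusted p = 0.131).

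Cyp26b1, which clears retinoic acid, had 14.7, 14.4 and 7.04 CPM in KO 146, 147 and 148, against 4.18, 1.65 and 4.09 CPM in CTRL 157, 162 and 163. The groups did not overlap, and the log2 fold change of 1.86 (SE 0.43) was not called (edgeR adjusted p = 0.0755, 2.53e-04 to 0.624 over the alternatives). The log2 fold change of Cyp26b1 was 1.15 with the proximal tubule covariate. Its relative Cyp26a1 was close to the count rule and overlapped between the groups (-0.11, SE 0.29). Cyp20a1, an orphan P450 with no settled substrate, had 36.3, 21.5 and 17.1 CPM in KO 146, 147 and 148, against 14.03, 13.7 and 16.0 CPM in CTRL 157, 162 and 163 (0.78, SE 0.27, edgeR adjusted p = 0.122). Cyp26b1, Cyp1b1 and Cyp20a1 were each highest in KO 146 and lowest among KO in KO 148. This was the order of the podocyte markers and also of the endothelial and mesangial markers, so it does not tell these lists apart. Cyp46a1 and Cyp2d22 had the same order among KO, and Cyp26b1 was nearly equal in KO 146 and KO 147. DESeq2 called Cyp26b1, Cyp1b1 and Cyp20a1 higher (background 11.7%). Cyp2r1, a vitamin D hydroxylase of the liver, was at 0.70 ± 0.28 CPM in KO and 0.66 ± 0.22 CPM in CTRL.

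Redox partners, haem enzymes and epoxide hydrolases were examined as a list of 18 genes. Of these, 15 had a negative log2 fold change, the median was -0.31, and edgeR called none (11 lower and 1 higher at an unadjusted p below 0.05, DESeq2 7 lower and 1 higher, limma-voom 0). Por, the NADPH reductase that feeds the microsomal P450s, had 165, 211 and 217 CPM in KO 146, 147 and 148, against 296, 254 and 303 CPM in CTRL 157, 162 and 163 (-0.52, SE 0.14, edgeR adjusted p = 0.0796). The gene with the smallest p was Fech, which inserts the iron in the last step of haem synthesis (-0.53, SE 0.12, edgeR adjusted p = 0.0753). The epoxide hydrolases lay on opposite sides, with Ephx2, which opens fatty acid epoxides, at -0.68 and Ephx1, which acts on foreign epoxides, at 1.11 (edgeR adjusted p = 0.0755 and 0.104). Of 19 tested transcription factors and receptors known to act on P450 genes, 15 were negative with a median of -0.23 and edgeR called none (7 lower and 1 higher at an unadjusted p below 0.05, DESeq2 5 lower and 1 higher, limma-voom 0). The smallest p was that of the growth hormone receptor Ghr (-0.61, SE 0.15, edgeR adjusted p = 0.0777). The xenobiotic receptor Nr1i2 (PXR) stood at -0.04 and Nr1i3 (CAR) had at most 22 counts. Of the androgen-responsive kidney genes Kap, Odc1, Slco1a1 and Gusb, edgeR called none. Their log2 fold changes were -0.81, -0.80, -1.33 and -0.05, with 3 lower at an unadjusted p below 0.05, 3 called lower by DESeq2 and 0 by limma-voom. For comparison with these lists, 50.7% of all tested genes had a negative log2 fold change. At an unadjusted p below 0.05, 11.8% of all tested genes were lower and 17.5% higher. DESeq2 called 5.65% of all tested genes lower and 11.7% higher, and limma-voom 0.363% and 0.433%.

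Every library held Y-linked transcripts, with Ddx3y at 71.1, 60.8 and 58.5 CPM in KO 146, 147 and 148, against 57.5, 55.5 and 55.3 CPM in CTRL 157, 162 and 163, while Xist had at most 4 counts in any library. RNA of other P450-rich tissues was looked for through their markers. The summed level of 10 hepatocyte genes was 10.2 to 15.3 CPM in the libraries labelled KO and 17.5 to 20.8 CPM in those labelled CTRL, and Tat, Cps1 and Ahsg had at most 3 counts in any library. Albumin (Alb) was at 0.73, 0.87 and 1.01 CPM in KO 146, 147 and 148, against 1.53, 1.47 and 1.47 CPM in CTRL 157, 162 and 163. Of the 7 tested hepatocyte genes, 5 had a negative and 2 a positive log2 fold change (Apoa1 and Apoa2), and edgeR called 0. The hepatocyte sum came mostly from Fga and Apoc3. Of 6 adrenal cortex genes, Nr5a1, Mc2r and Mrap had at most 3 counts, and the sum of 6.78 to 18.4 CPM in KO and 5.06 to 5.65 CPM in CTRL came mostly from Akr1b7 and Star.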

How the data were processed

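RNA from isolated glomeruli of 6 mice was measured in 1 library per mouse. Per the labels, total RNA was extracted with an RNeasy mini kit. The submitters' processing notes list, without roles, HTSeq 0.11.1, STAR 2.6.0, DESeq2 and fastp 0.19.5, and the build GRCh37, a human assembly, although the identifiers are those of mouse genes. No source used here gives the annotation release, strand setting or read length. The values the authors deposited are raw read counts per gene with no normalization. The 5 closing lines of each file that name no gene were left out. Reads that aligned to several places were 22.5% to 29.6% of records and are absent from the gene counts.

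Names, positions and exon lengths came from GENCODE M21 on GRCm38, which matched 54809 of 54838 identifiers. Counts were tested with edgeR 4.0.16 in R 4.3.3, using TMM scaling, filterByExpr (groups, minimum 10 counts) and its quasi-likelihood test with robust estimation, KO over CTRL, no covariate. Benjamini-Hochberg adjustment covered every gene tested. All 30 members passed that filter. SE was taken from the size of the log2 fold change over the root of the F statistic. CPM uses TMM library sizes, and log2 CPM a prior count of 2. The self-test on simulated counts was run with the same functions. Alternatives were DESeq2 1.42.0, limma-voom with limma 3.58.1, other scalings, no filter, a fit without robust estimation, a proximal tubule covariate and leaving out each library. Libraries of a group differed beyond sampling noise (chi-square per degree of freedom of 16.7 or more), so each counts once.

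The genes named in full were the called members, the 5 of highest level per kb, the highest in each role class, those next to the count rule, and list genes called or of smallest p. Others are named as members of the family after their values were seen. The members and lists were chosen with earlier results of these data known. Some gene and motif results are not reported here.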

Additional observations from a re-analysis of the deposited data

How the results depend on the processing

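The number of called P450 genes depended on the tool and on single libraries. Over all genes edgeR called 173, and the count was 960 without the filter, 2959 with DESeq2, 316 with the proximal tubule covariate, and 2 to 3211 with 1 library left out. The 3 members called lower became 9 without the filter, 14 with DESeq2, 0 with the covariate, and 0 to 12 with 1 library left out. The count of members called higher was 3 with DESeq2 and 0 to 3 with 1 library left out. Without KO 146 edgeR called 12 lower and 0 higher, and without KO 148 it called 11 lower and 3 higher. The median log2 fold change of the members was -0.28 with library totals, -0.18 with the covariate, and -0.60 when members needed 50 counts, and -0.52 to -0.30 with 1 library left out. The covariate itself did not overlap between the groups. The cause of these shifts was not tested. Signs turned for some members that edgeR did not call. With library totals Cyp2j7, Cyp2s1 and Cyp26a1 were at 0.0473, 0.0011 and 0.032, and with limma-voom Cyp2u1 and Cyp39a1 at -0.0244 and -0.0194. With the covariate Cyp1a1, Cyp2d22, Cyp2j6, Cyp2j7, Cyp2j9 and Cyp2t4 were at 0.81, -0.56, 0.43, 0.73, 0.18 and 0.27, and Cyp20a1, which DESeq2 had called higher, at -0.28. With 1 library left out, the log2 fold change ran from -0.31 to 0.14 for Cyp1a1, -0.0271 to 0.43 for Cyp2d22, -0.42 to 0.14 for Cyp2j7, -0.18 to 0.38 for Cyp2r1, -0.11 to 0.18 for Cyp2u1, -0.28 to 0.0365 for Cyp26a1 and -0.075 to 0.21 for Cyp39a1. No paired analysis was possible because the groups share no replicate numbers. Nothing in the labels says whether libraries were made together, so a batch cannot be told apart from the groups. Genes with few counts, such as Cyp2t4, Cyp2r1 and Cyp26a1, can show only large differences at this depth.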
